A study of Arabidopsis thaliana with 12 samples.

Results

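A set of 76 probe sets carried the flower-specific transcripts whose signal in lug-3 flowers was at most 50% of that in wild-type flowers, out of 22746 non-control probe sets on the Affymetrix ATH1 array. A probe set entered when its mean signal was at least 300 in wild-type flowers and at most 20 in both lug-3 and wild-type rosette leaves, and when its mean in lug-3 flowers was at most 50% of the wild-type flower mean. Signal is the deposited linear intensity, which the authors had scaled alike on every array. The first 3 conditions alone were met by 114 probe sets, so that the members made up 66.7% of the flower-specific probe sets and 38 others were left. Of the 76 members, 44 probe sets were annotated with 1 gene, 4 with several genes and 28 are unnamed here.

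The 4 groups were flowers at growth stage 6.90 from plants carrying the lug-3 mutation, flowers of the same stage from wild-type plants, mature rosette leaves at growth stage 3.90 from lug-3 plants, and rosette leaves of the same stage from wild-type plants. All plants were in the Landsberg erecta (Ler-0) background and grew at 20 °C after 4 days of the seeds at 4 °C. Each group had 3 arrays, each from a pool of 20 plants, and the labels do not say whether the pools were grown separately, so a p-value here covers the differences between arrays of a group, which may be technical only. The lug-3 allele is the only LEUNIG mutation sampled. No probe set named here belongs to LEUNIG, so the mutation itself was not checked in these data.

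LEUNIG is a transcriptional corepressor of the plant Groucho/Tup1 type that works with the adaptor protein SEUSS and restricts AGAMOUS, the gene that specifies stamens and carpels, to the inner part of the flower. Mature stamens hold cell types with large stocks of transcripts found in few other places. The tapetum, the inner lining of the anther, makes lipids, lipid transfer proteins and coat material for pollen, and pollen itself stores messages for pectin-modifying enzymes, actin regulators, signalling peptides and desiccation-related proteins used when the pollen tube grows.

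The members were chosen by the mean signals of all 4 groups, so their values are given as a description, from which no test is drawn. Every one of the 76 had its 3 lug-3 flower arrays below its 3 wild-type flower arrays. Over all 17877 probe sets tested, 16.3% showed such a separation, 5.29% had a lug-3 mean at most 50% of wild type, and 6.75% were called lower by limma at an adjusted p below 0.05. All 76 members were called lower in that fit, which the choice of members had fixed in large part, so nothing is read from it. Their median log2 change, lug-3 minus wild-type flowers on the scale of log2(signal + 8), was -1.70, beside 0.05 over all probe sets tested.

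The word lost, used for these transcripts in the working name of the set, does not mean that their signal was absent in lug-3 flowers. Mean signal in lug-3 flowers ran from 20.8 to 884 with a median of 167, against 300 to 2347 with a median of 581 in wild-type flowers. Mean signal in leaves was 0.258 to 18.2 in lug-3 and 0.424 to 19.1 in wild type. In all 76 members every lug-3 flower array lay above every leaf array, as it did in all 38 other flower-specific probe sets. The cap on the leaf means favours this order, and its share over all probe sets was not counted. No fold over leaves is given, since the rule caps the leaf means. In RNA from whole flowers, fewer cells of a type and less RNA per cell cannot be told apart.

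The remaining level was similar across many members. The lug-3 flower mean was 29.7% of the wild-type mean at the median, with quartiles of 26.6% and 35.8%, and 53 of the 76 members lay between 25% and 40%. At the low end stood AT1G56100 at 3.56% and AT5G47350 at 5.04%, the 2 members under 10%. The 32 members with several genes or no name spanned 12.6% to 40.1%.

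**Figure D1:**
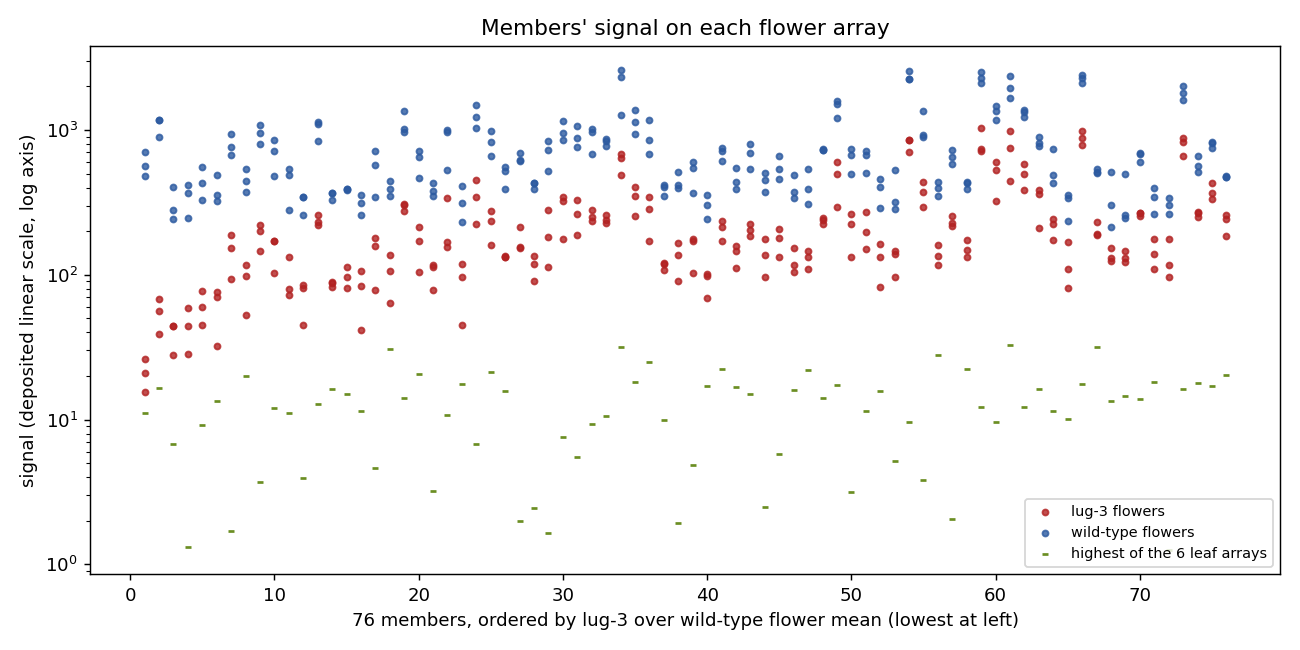
Signal of each of the 76 members on every flower array (log axis), with lug-3 flowers in red, wild-type flowers in blue and the highest of the 6 leaf arrays as a green dash; members are ordered from the lowest to the highest ratio of lug-3 to wild-type flower mean. In every member the 3 red points lie below the 3 blue points and above the green dash.

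The lowest ratios belonged to genes whose functions are left out here. AT1G56100 had signals of 15.4, 26.0 and 20.8 in lug-3 flowers, against 705, 563 and 482 in wild-type flowers. AT5G47350 had 39.1, 68.2 and 56.4 in lug-3 flowers, against 1172, 1180 and 896 in wild-type flowers, which also placed it among the 10 members with 1 named gene that had the highest wild-type flower signal. Both stood apart from the rest: the next named member, AT3G01250, was at 12.7% of wild type, with 28.6, 44.4 and 58.6 in lug-3 flowers and 419, 369 and 248 in wild-type flowers. AT1G52680 followed at 15.4%, with 32.4, 70.4 and 76.1 in lug-3 flowers and 486, 353 and 325 in wild-type flowers. The groups did not overlap in any of these 4 genes, and lug-3 flowers 1 was the lowest array in each.

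Some members encode proteins that act on pectin, the gel of the cell wall that is remodelled as pollen tubes elongate. The members are ordered by function here and in what follows from general knowledge, after their values were seen, and no family was tested. AT3G07820, a polygalacturonase gene whose type of product cuts the pectin backbone, had 176, 322 and 345 in lug-3 flowers, against 1144, 953 and 846 in wild-type flowers, or 28.6% of the wild-type mean. AT5G07430, of the pectin methylesterase type, which removes methyl groups from pectin, averaged 150 ± 41.5 in lug-3 and 504 ± 120 in wild-type flowers (SD, n = 3 each). AT5G49180, another pectin methylesterase gene, averaged 137 ± 21.8 in lug-3 and 394 ± 42.4 in wild-type flowers. The 2 methylesterase genes were at 29.8% and 34.9% of the wild-type mean.

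Of the family of invertase and pectin methylesterase inhibitors, small proteins that block such enzymes, AT1G10770 is one of the 10 members with 1 named gene of highest wild-type flower mean. Its signals were 171, 283 and 342 in lug-3 flowers, against 1168, 846 and 685 in wild-type flowers. AT1G70720 averaged 151 ± 20.6 in lug-3 and 420 ± 24.7 in wild-type flowers, and AT2G47050 averaged 319 ± 94.5 in lug-3 and 828 ± 59.6 in wild-type flowers. These 3 were at 29.5%, 36.0% and 38.5% of wild type.

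Cytoskeleton and signalling genes of pollen formed a small group. PLIM2a, an actin-bundling LIM protein of pollen, had 41.3, 83.0 and 106 in lug-3 flowers, against 353, 313 and 261 in wild-type flowers. RALFL26, a gene for a small secreted peptide of the rapid alkalinization factor type, had 44.6, 96.9 and 119 in lug-3 flowers, against 413, 315 and 232 in wild-type flowers. AT3G03430, which encodes a small calcium-binding protein with EF hands, had 53.1, 98.1 and 117 in lug-3 flowers, against 534, 447 and 373 in wild-type flowers. They kept 24.8%, 27.1% and 19.8% of the wild-type mean, and in each the lowest lug-3 array was replicate 1 and the highest wild-type array was replicate 1.

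Genes of the late embryogenesis abundant type, whose products protect cells that dry out, as pollen and seeds do, were represented by AT5G38760, AT3G02480 and AT5G53820. AT5G38760 had 93.5, 153 and 188 in lug-3 flowers, against 943, 757 and 675 in wild-type flowers. AT3G02480 had 63.4, 106 and 136 in lug-3 flowers, against 445, 389 and 348 in wild-type flowers. The arrays of AT5G53820 were close to each other, with 90.7, 118 and 135 in lug-3 flowers and 429, 430 and 394 in wild-type flowers. The first gene was at 18.3% of wild type, and the other two were at 25.9% and 27.4%.

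Members that encode proteins of the Ole e 1 pollen allergen family were AT5G45880 and AT1G29140. AT5G45880 had signals of 294, 496 and 604 in lug-3 flowers, against 1581, 1522 and 1210 in wild-type flowers. AT1G29140 averaged 89.6 ± 17.7 in lug-3 and 300 ± 57.7 in wild-type flowers, the lowest wild-type flower mean in the set. Their ratios were 32.3% and 29.8%.

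Tapetum genes were represented by ATA27, an anther beta-glucosidase gene, and by AT5G07230 and AT5G62080, which encode lipid transfer proteins. ATA27 had 294, 374 and 436 in lug-3 flowers, against 895, 928 and 1347 in wild-type flowers. AT5G07230 had 123, 130 and 146 in lug-3 flowers, against 245, 258 and 498 in wild-type flowers. AT5G62080 had 131, 123 and 153 in lug-3 flowers, against 214, 304 and 513 in wild-type flowers. In all 3 genes wild-type flowers 3 was the highest array, and the wild-type arrays of the lipid transfer protein genes differed among themselves by more than the 3 lug-3 arrays did. AT1G66850, a further lipid transfer protein gene, had 660, 826 and 884 in lug-3 flowers and 1804, 1609 and 2014 in wild-type flowers. At 43.7% of wild type it kept more of its signal than most members.

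Genes for proteases, their inhibitors and other secreted enzymes covered most of the range of ratios. AT1G72290, a Kunitz-type protease inhibitor gene, had 219, 201 and 147 in lug-3 flowers, against 803, 951 and 1081 in wild-type flowers, with lug-3 flowers 1 the highest of its group. SBT4.13, a subtilisin-like protease gene, averaged 241 ± 15.4 in lug-3 and 824 ± 43.5 in wild-type flowers. AT1G06260, a cysteine protease gene, averaged 125 ± 25.4 in lug-3 and 399 ± 78.6 in wild-type flowers. The inhibitor gene was at 20.0% of wild type and these protease genes at 29.3% and 31.3%. AT4G04460, an aspartic protease gene, was at 47.3%, AT5G45670, a gene for a GDSL-type lipase, at 45.3%, and AT1G44970, a peroxidase gene, at 47.8%, the highest ratio in the set.

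GILT, a thiol reductase gene, was the member with the highest wild-type flower signal. It had 700, 848 and 859 in lug-3 flowers, against 2545, 2256 and 2239 in wild-type flowers. AT4G12890, a gene of the same family that lies close to GILT on chromosome 4 with 6 protein-coding genes between them, averaged 116 ± 6.94 in lug-3 and 392 ± 35.7 in wild-type flowers. GILT was 34.2% and AT4G12890 29.6% of wild type. Signals of different probe sets are not set against each other as transcript levels, since probe sets differ in how strongly they bind.

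BPEp is the annotated name of AT1G59640, the BIG PETAL gene, a basic helix-loop-helix factor with a petal isoform that limits petal growth. Whether the probe set separates that isoform from the other was not tested. Its signal was 178, 110 and 139 in lug-3 flowers, against 342, 396 and 262 in wild-type flowers, or 42.7% of the wild-type mean. CYP71B31, a cytochrome P450 gene, had 156, 169 and 342 in lug-3 flowers, against 998, 964 and 526 in wild-type flowers. In CYP71B31 the third arrays of the groups lay much nearer to each other than the rest did, without overlap.

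Several members without a role given here lay near each other on chromosome 3. AT3G01240 and AT3G01250 are adjacent protein-coding genes, and AT3G01240 averaged 206 ± 65.8 in lug-3 and 638 ± 123 in wild-type flowers. AT3G28750, AT3G28790 and AT3G28830 lie in 1 stretch, with 4 protein-coding genes between the first pair and 2 between the second. AT3G28750 had 224, 344 and 449 in lug-3 flowers, against 1490, 1223 and 1030 in wild-type flowers. AT3G28790 averaged 206 ± 19.6 in lug-3 and 674 ± 131 in wild-type flowers, and AT3G28830 averaged 131 ± 38.1 in lug-3 and 443 ± 60.2 in wild-type flowers. These 3 genes were at 27.2%, 30.5% and 29.7% of wild type. Of the 44 member genes, 13 are on chromosome 1, 2 on chromosome 2, 12 on chromosome 3, 4 on chromosome 4 and 13 on chromosome 5. Chromosome 2 held 4.55% of these 44 genes and 16.5% of all probe sets with 1 gene. Members with several genes or no name were not placed, and the shares were not tested.

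The remaining named members lay inside the same range. AT5G39880 had 79.0, 157 and 180 in lug-3 flowers, against 710, 570 and 344 in wild-type flowers. AT5G26700 had 105, 171 and 212 in lug-3 flowers, against 718, 649 and 469 in wild-type flowers. AT3G49270, among the 10 members with 1 named gene of highest wild-type flower signal, had 278, 252 and 235 in lug-3 flowers, against 1016, 966 and 680 in wild-type flowers. The first 2 were lowest on lug-3 flowers 1, as most members were, while AT3G49270 was highest on that array. AT4G37900, AT1G30020, AT3G28980, AT1G68875 and AT5G61720 were at 30.1%, 31.5%, 32.7%, 35.7% and 43.0% of wild type.

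**Figure D2:**
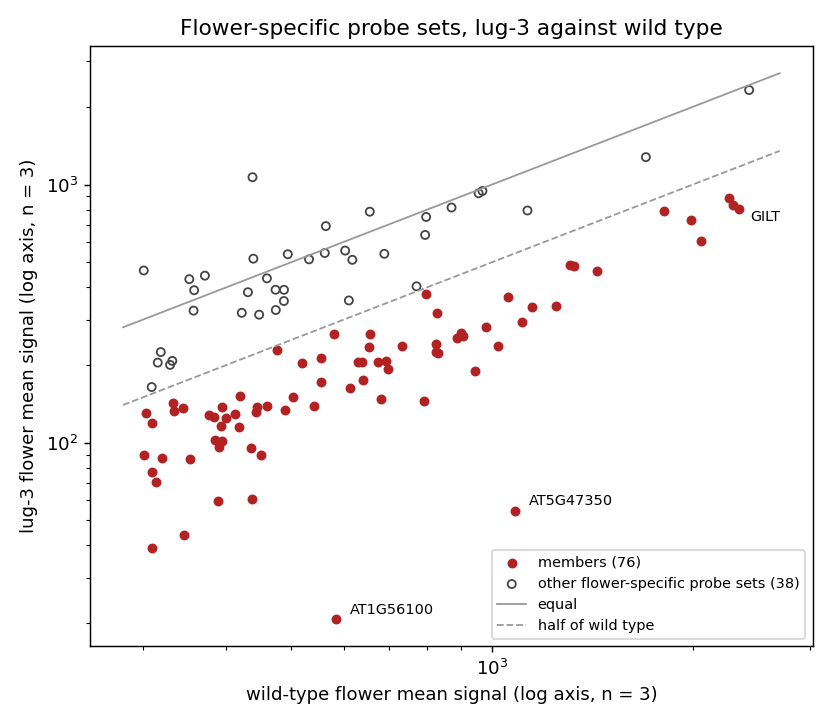
Mean signal in lug-3 flowers against mean signal in wild-type flowers (both log axes, n = 3 each) for the 76 members in red and the 38 other flower-specific probe sets as open circles; the solid line marks equal signal and the dashed line 50% of wild type. The rule places the members below the dashed line; AT1G56100 and AT5G47350 lie far under the others, and GILT has the highest wild-type flower mean.

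At the threshold of 50%, the members just inside were AT1G44970, AT4G04460, AT5G45670, AT1G66850 and AT5G61720, from 47.8% down to 43.0%. The flower-specific probe sets just outside were 4 without a name, from 52.3% to 60.8%, and CHIL, a gene of flavonoid synthesis, at 62.5%, with 207 ± 40.7 in lug-3 and 332 ± 67.6 in wild-type flowers. Just under the flower minimum of 300 were 2 genes with lower ratios than any member. AT2G38900 averaged 9.04 ± 5.31 in lug-3 and 297 ± 77.3 in wild-type flowers, and BAN, the anthocyanidin reductase gene of the seed coat, averaged 4.80 ± 2.76 in lug-3 and 295 ± 62.1 in wild-type flowers. Also just under it were AT5G62750 at 11.6%, UGT85A3 at 26.7% and 1 unnamed probe set at 20.9% of wild type. Just above the leaf maximum of 20 stood LPR1, with 164 ± 35.9 in lug-3 and 334 ± 65.0 in wild-type flowers, and a mean of 6.43 in lug-3 and 20.5 in wild-type leaves.

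The share of probe sets with a low flower ratio is given here by leaf and flower signal. Among the 38 others the lug-3 flower mean was 89.9% of wild type at the median, from 52.3% to 244%, with 4 called lower and 1 higher. Probe sets with a wild-type flower mean of at least 300 that were above 20 in at least 1 leaf group numbered 1997, and 57 of them, 2.85%, had a lug-3 flower mean at most 50% of wild type, with a median of 95.1%. Where both leaf means were at most 20, the share at most 50% was 45.1% for wild-type flower means of 50 to 100, 59.5% for 100 to 300, 63.5% for 300 to 1000 and 83.3% (15 of 18) for 1000 and over. The classes use the same flower arrays as the ratio, so these shares are a description.

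**Figure D3:**
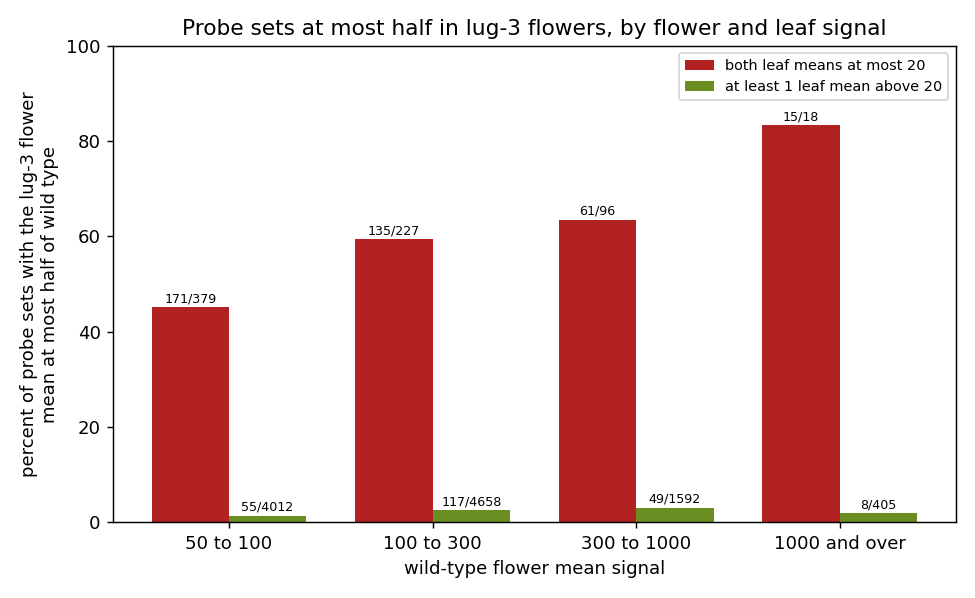
Percent of probe sets whose lug-3 flower mean was at most 50% of the wild-type flower mean, by wild-type flower mean signal; red bars are probe sets with both leaf means at most 20, green bars those with at least 1 leaf mean above 20, and the fractions are counts. The red bars stand between 45.1% and 83.3% and the green bars between 1.37% and 3.08%.

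To see probe sets chosen by the rule on arrays that had not chosen them, it was applied to replicates 2 and 3 of each group. The ratio was then read from the flower arrays numbered 1, and so on for each number. Of the 70, 70 and 84 probe sets so chosen, 67, 69 and 73 are members. On the arrays left out, 66 of 70, 66 of 70 and 64 of 84 probe sets so chosen were again at most 50% of wild type, and all were lower in lug-3. The median ratio on the arrays left out was 23.5%, 30.2% and 41.9% for replicates 1, 2 and 3. Flower-specific probe sets not chosen were at most 50% on those arrays in 1 of 36, 5 of 39 and 1 of 34 cases. The arrays left out come from the same groups, whose differences may be technical only, and equal numbers are not known to mark pairs. The share over all probe sets on the arrays left out was not counted, so these counts are a description.

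The members moved together from array to array inside a group. Relative to the wild-type flower mean, the median member stood at 23.9%, 30.9% and 35.3% on lug-3 flowers 1, 2 and 3, and at 112%, 100% and 85.7% on wild-type flowers 1, 2 and 3. In 61 of 76 members lug-3 flowers 1 was the lowest of its group, and in 61 lug-3 flowers 3 was the highest. In 50 of 76 members wild-type flowers 1 was the highest of its group, and in 55 wild-type flowers 3 was the lowest. Among the 38 other flower-specific probe sets, lug-3 flowers 1 was the lowest in 11 and lug-3 flowers 3 the highest in 20. In these others wild-type flowers 1 was the highest in 14 and wild-type flowers 3 the lowest in 22. Such counts were not taken over all probe sets, so whether this order is particular to the members was not tested. The other flower-specific probe sets varied less, with medians of 86.1%, 83.1% and 89.4% on the lug-3 arrays and 101%, 101% and 97.3% on the wild-type arrays. RNA integrity, read as the GAPDH control signal at the 3' end over that at the 5' end, was 1.65, 2.02 and 3.10 on lug-3 flowers 1, 2 and 3 and 1.63, 1.78 and 2.07 on wild-type flowers 1, 2 and 3. The part of RNA integrity in these differences between arrays was not tested.

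In 16 members wild-type flowers 3 was the highest array of its group, by little in some of them. An unnamed probe set among them had 388, 390 and 391 on wild-type flowers 1, 2 and 3. Among the 16 were the 3 tapetum genes ATA27, AT5G07230 and AT5G62080, the cysteine protease gene AT1G06260 and the protease inhibitor gene AT1G72290. AT1G30020, AT1G66850, AT4G37900 and AT1G68875 also belonged to them. Relative to their own wild-type mean, AT5G62080 ranged from 62.2% on wild-type flowers 1 to 149% on wild-type flowers 3, while the median member went the other way. The 3 tested tapetum genes outside the set had the same array highest. SHT, a spermidine hydroxycinnamoyl transferase of the tapetum, had 145, 165 and 241 on wild-type flowers 1, 2 and 3. SWEET8, a sugar transporter gene of the tapetum, had 217, 221 and 301. AT1G75920 had 184, 151 and 197. Of the 2 untested genes of that list, AMS was also highest there, with 13.8, 16.5 and 21.7, while AT5G52160 was lowest there, with 19.7, 17.4 and 13.1.

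**Figure D4:**
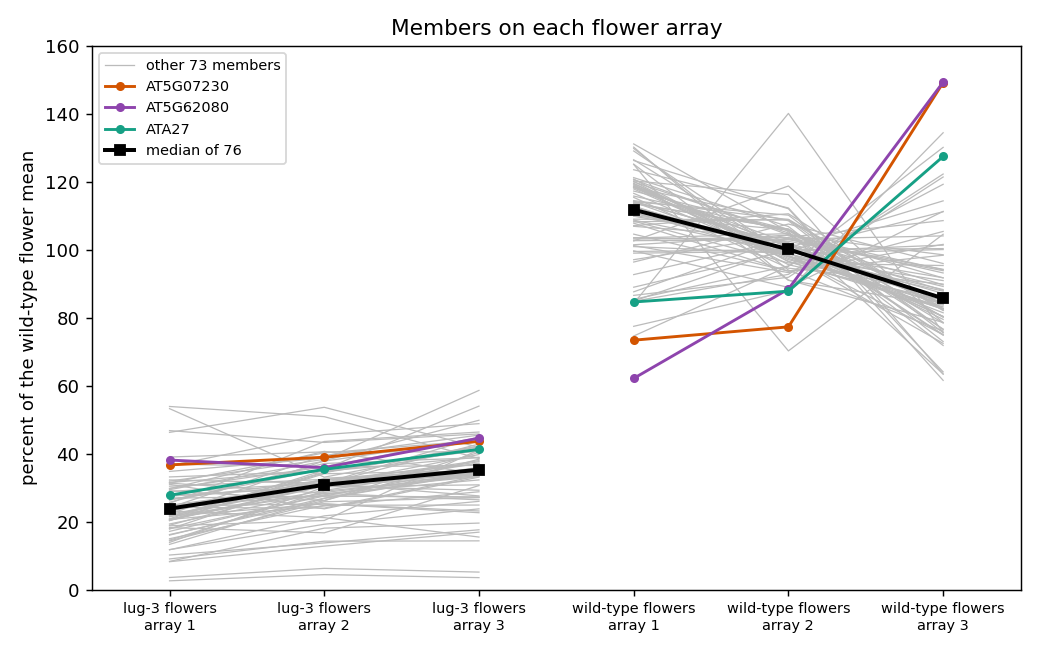
Each member's signal on the 6 flower arrays as a percent of its wild-type flower mean; each line joins the values of 1 member within a group, the black line is the median of 76, and the 3 tapetum genes are coloured. The median is lowest on lug-3 flowers 1 at 23.9% and highest on wild-type flowers 1 at 112%, while the 3 tapetum genes are highest on wild-type flowers 3; replicate numbers carry no order.

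Known genes of floral cell types that are not members were tested in the limma fit over 17877 probe sets, of which 6.75% were called lower and 5.27% higher in lug-3 flowers. Pollen and sperm genes were lower in lug-3 flowers in 6 of 8 tested, with none higher, and tapetum and pollen coat genes in 3 of 3. These lists hold 28 and 36 loci, of which only 10 and 8 have a named probe set here, members included. AGL104, of the pollen list, passed the filter on low signal through the wild-type flower arrays alone, and without it the count is 5 of 7. The median log2 change of these non-members was -0.97 for pollen and sperm (-1.06 without AGL104) and -1.44 for the tapetum list, beside 0.05 over all probe sets tested. The lists were chosen with earlier results of these data known.

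ANX2, a receptor-like kinase gene of the pollen tube, had 10.1, 16.1 and 23.7 in lug-3 flowers, against 86.0, 104 and 64.7 in wild-type flowers (log2 change -1.93, SE 0.20, adjusted p = 8.94e-05). MGH3, the histone H3 gene of sperm cells, had 22.7, 18.2 and 9.94 in lug-3 flowers, against 69.3, 89.4 and 58.5 in wild-type flowers (-1.71, SE 0.28, adjusted p = 0.00233). PLIM2b, a close relative of the member PLIM2a, fell by 1.06 on the log2 scale (adjusted p = 0.00148), and the reproductive actin gene ACT11 fell by 0.89 (adjusted p = 0.00233). The groups did not overlap in any of these 4 genes. ACT12, another actin gene of pollen, was also called lower, at -1.20 (adjusted p = 0.00282). AGL104, a MADS-box factor gene of pollen, had 9.52, 13.1 and 15.3 in lug-3 flowers, against 26.1, 21.0 and 22.3 in wild-type flowers (-0.60). Its call was near the threshold, and since it passed the filter through the wild-type flower arrays alone, no test is drawn from it. The pollen list had 5 calls under the replicate block, median centring, a pseudocount of 1 and the GAPDH covariate, without any 1 of the 6 flower arrays, and without wild-type leaves 2 or 3. AGL66 and AGL65 were at -0.81 (adjusted p = 0.139) and -0.27 (adjusted p = 0.243) and did not pass. The summed signal of the 9 non-members with a named probe set on this list was 290 to 334 on lug-3 flower arrays, against 650 to 783 on wild-type flower arrays. It was 144 to 165 on lug-3 leaf arrays and 129 to 153 on wild-type leaf arrays, and the genes differed in their part of it. PLIM2b, ACT11 and AGL65 had leaf means of 35.3, 52.4 and 33.5 in lug-3 and 56.3, 18.3 and 34.4 in wild type. ANX2, MGH3 and ACT12 had leaf means of at most 7.45.

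In the tapetum list, AT1G75920, a gene for a GDSL-type lipase of the anther, had 54.0, 59.9 and 53.6 in lug-3 flowers, against 184, 151 and 197 in wild-type flowers (log2 change -1.53, SE 0.19, adjusted p = 0.000372). SHT had 65.4, 56.8 and 61.3 in lug-3 flowers, with its wild-type values above (-1.44, SE 0.22, adjusted p = 0.00121). SWEET8 had 63.3, 119 and 83.7 in lug-3 flowers (-1.42, SE 0.23, adjusted p = 0.00196). Every lug-3 array lay below every wild-type array in all 3 genes. The early tapetum regulator AMS was below the filter on low signal and was not tested.

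Other lists of floral tissues gave few or no calls, but few of their loci have a named probe set here. It is 2 of 8 loci for stamen maturation and floral scent, and 2 of 6 for the nectary. It is 5 of 17 for floral organ identity and petal growth, 1 of 12 for cutin and epidermis, and 5 of 27 for carpel, ovule and seed coat. For stamen maturation and floral scent, the terpene synthase genes AT5G44630 and AT3G25810 averaged 109% and 81.3% of wild type (adjusted p = 0.624 and 0.529), with 0 of 2 called and none at an unadjusted p below 0.05. The nectary genes SWEET9 and JMT were at 80.4% and 113% of wild type (adjusted p = 0.357 and 0.863), and limma called 0 of 2, with none at an unadjusted p below 0.05. Their summed signal was 885 to 1478 on lug-3 flower arrays, against 1077 to 1304 on wild-type flower arrays. JAG and PTL, growth regulators of petals and other floral organs, were at 0.47 and 0.30 on the log2 scale (adjusted p = 0.290 and 0.475). Again limma called 0 of 2, with none at an unadjusted p below 0.05. Both were dim, with means in lug-3 and wild-type flowers of 25.5 and 15.9 for JAG and 25.7 and 19.5 for PTL. UFO and RBE of this list did not pass the filter on low signal and were not tested. BPEp, at 42.7% of wild type, is a member and is not counted here. With only dim genes tested, this list cannot decide whether petal and organ genes changed. AT5G33370, on the list of floral cutin and epidermis, averaged 75.1% of wild type (adjusted p = 0.379), with no call and an unadjusted p of 0.155. A p that misses the threshold does not show that these levels were equal.

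Of 4 tested carpel, ovule and seed coat genes, INO was lower and SPT was higher in lug-3 flowers, and BAN was called lower after passing the filter on low signal through the wild-type flower arrays alone. BAN had 3.79, 7.92 and 2.68 in lug-3 flowers, against 357, 295 and 233 in wild-type flowers, so its lug-3 values were below the level of 16.4 that the filter uses and no test is drawn from it. INO, a YABBY factor gene of the outer ovule integument, had 41.6, 37.3 and 39.2 in lug-3 flowers, against 71.2, 61.8 and 75.4 in wild-type flowers (-0.71, SE 0.17, adjusted p = 0.0187). The call was lost without lug-3 flowers 2, wild-type flowers 1 or wild-type flowers 3, with an adjusted p of 0.0708, 0.0738 and 0.0611. SPT, a basic helix-loop-helix gene of carpel margins, had 88.4, 83.5 and 77.4 in lug-3 flowers, against 60.6, 51.5 and 49.0 in wild-type flowers (0.57, SE 0.13, adjusted p = 0.0124), and missed the threshold without lug-3 flowers 1 or wild-type flowers 2 (adjusted p = 0.0540 and 0.0586). ALC, its relative in fruit opening, was at 0.41 (adjusted p = 0.338).

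Flavonoid and anthocyanin genes were lower in 4 of 6 tested, from a list of 20 loci. DFR, which makes the precursors of anthocyanins, had 39.98, 45.2 and 59.0 in lug-3 flowers, against 605, 518 and 293 in wild-type flowers (log2 change -3.05, SE 0.32, adjusted p = 0.000125). AT4G14090, an anthocyanin glucosyltransferase gene, fell by 4.01 (adjusted p = 0.00032), UF3GT by 2.21 (adjusted p = 0.000823) and AT5MAT by 2.03 (adjusted p = 0.000896). Unlike the members, DFR, AT4G14090 and UF3GT had a wild-type leaf mean above 100 in signal, namely 156, 102 and 117. In the fit, 23.0% of all probe sets tested had a lug-3 change in flowers that differed from the lug-3 change in leaves. Among them were 11 of the tested list genes that are not members, AGL104 and BAN included. UGT78D1 and UGT78D2 were at -0.02 (adjusted p = 0.947) and -0.34 (adjusted p = 0.255).

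Leaf genes and the LEUNIG partner served to look for green tissue and for the corepressor. Only 3 of 12 loci on the photosynthesis list and 1 of 6 on the corepressor list have a named probe set here. In leaves the Rubisco activase gene RCA averaged 4745 in lug-3 and 5638 in wild type. RCA, SBPASE and LHCB4.2, all of photosynthesis, were at 119%, 116% and 151% of wild type in lug-3 flowers, with 0 of 3 called and 1, LHCB4.2, at an unadjusted p below 0.05 (adjusted p = 0.0748). Their summed signal was 3972 to 5175 on lug-3 flower arrays, against 3558 to 4222 on wild-type flower arrays, and its part in the lower signal of the members was not tested. LHCB4.2 was called higher without lug-3 flowers 3 (adjusted p = 0.0183) or wild-type flowers 3 (adjusted p = 0.0352). SEU, which encodes SEUSS, had 145, 141 and 133 in lug-3 flowers, against 130, 135 and 136 in wild-type flowers (0.06, SE 0.09, adjusted p = 0.754), with no call and an unadjusted p of 0.540.

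**Figure D5:**
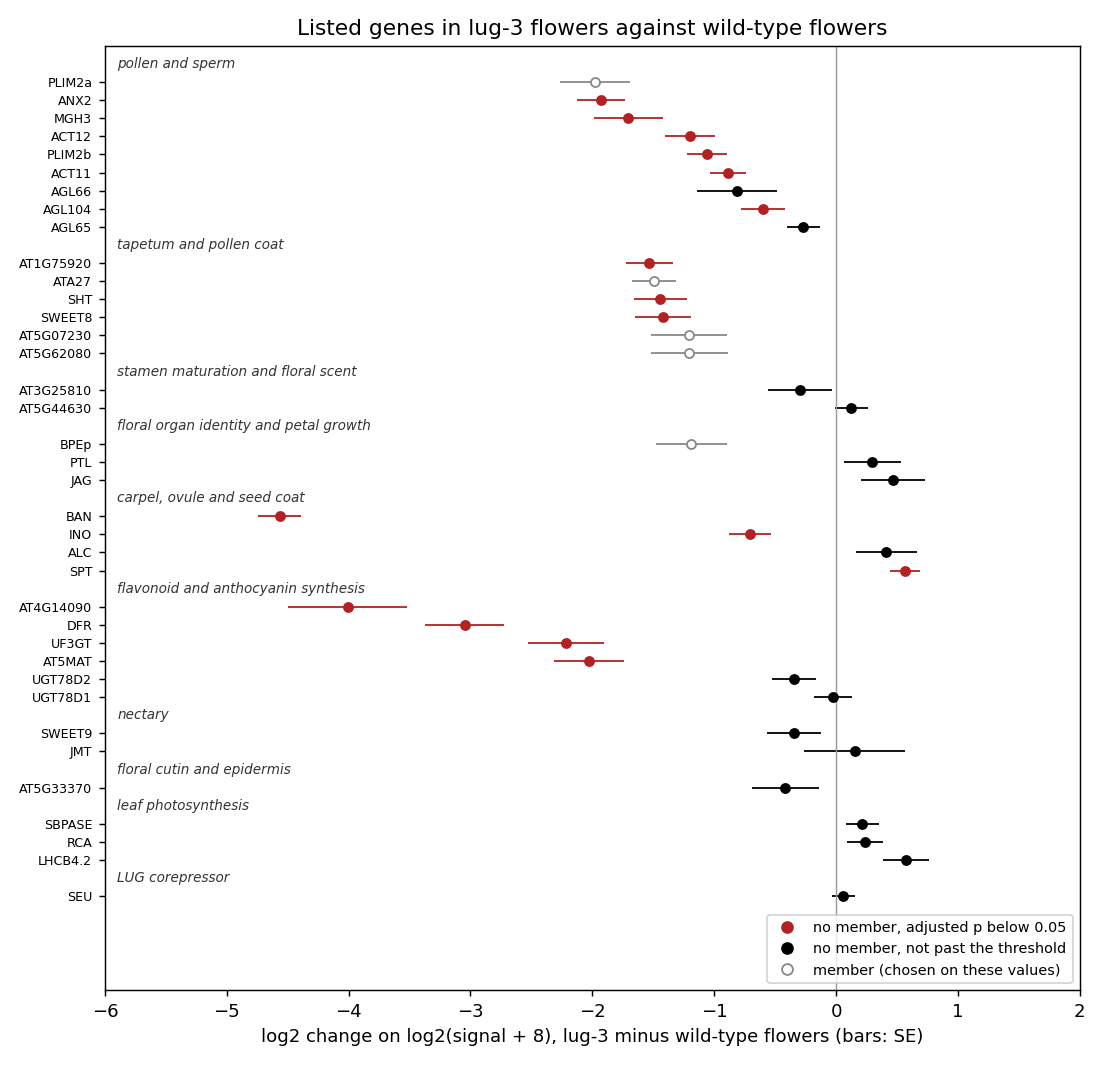
Log2 change in lug-3 minus wild-type flowers (on log2(signal + 8), bars show the SE) for the listed genes; red points are non-members called at an adjusted p below 0.05, black points non-members that were not called, and open grey points members, which were chosen on these values. AGL104 and BAN passed the filter on low signal through the wild-type flower arrays alone. Pollen and tapetum genes lie between -1.98 and -0.27, while SPT is the red point to the right of 0, at 0.57.

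Genes that share a symbol stem with a member were chosen for a look after values had been seen, and are set beside the 6.75% of all probe sets called lower and the 5.27% called higher. Of 9 other RALF-like peptide genes tested, 6 were lower in lug-3 flowers and none higher. RALFL18 and RALFL28 passed the filter through the wild-type flower arrays alone, and without them 4 of 7 were lower. RALFL25, the gene next to RALFL26, averaged 46.5 in lug-3 and 233 in wild-type flowers (log2 change -2.15, SE 0.26, adjusted p = 0.000284), with means under 2 in both leaf groups. RALFL33, RALFL34 and RALFL32 were present in leaves, with 428, 330 and 45.3 in lug-3 leaves, and were not called in flowers (adjusted p = 0.699, 0.927 and 0.972). RALFL24 and RALFL22 were lower at -0.83 and -0.62 although they too had leaf signal, of 77.3 and 125 in lug-3 leaves. Of 14 other CYP71B genes tested, 2 were lower and 4 higher, 1 of these (CYP71B37) above the filter in lug-3 flowers alone. CYP71B26 rose to 240 in lug-3 flowers, against 33.9 in wild-type flowers (log2 change 2.56, SE 0.24, adjusted p = 4.83e-05). Of 13 BGLU genes, the beta-glucosidases, 3 were lower and 1 higher, and of 8 SBT subtilase genes limma called none, with 1 at an unadjusted p below 0.05.

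The 5 protein-coding genes on each side of every named member were looked at in the same way. Of 148 such neighbours tested that are no members, 14 (9.46%) were lower and 9 higher in lug-3 flowers, with a median log2 change of 0.01, beside 6.75% lower and 5.27% higher and a median of 0.05 over all probe sets tested. Without AT5G07420 and AT4G12930, which passed the filter through the wild-type flower arrays alone, 8.22% were lower, beside 6.19% of all probe sets counted in the same way. These shares are near the background and are no result about neighbours. Among the called ones, AT3G01270, near AT3G01240, averaged 357 in lug-3 and 1161 in wild-type flowers (-1.72, adjusted p = 0.000758). AT3G28840, near AT3G28790, averaged 84.5 in lug-3 and 197 in wild-type flowers (-1.16, adjusted p = 0.0356). Neighbouring genes of 1 family can share probe sequence, and how far that adds to their signal was not tested.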

How the data were processed

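RNA from 12 samples was hybridised to 1-colour Affymetrix ATH1 arrays. Values in the deposited table are linear intensity per probe set. The submitters' processing notes name MAS5 and GCOS, with versions not given in the sources used here. These deposited intensity values had been scaled by the authors, since the mean after trimming 2% at each end was 100.0 on every array, and no further scaling was applied. The 22746 non-control probe sets were named through GEO's platform annotation (13513 with 1 gene, 503 with several, 8730 without a name here), with symbols updated from the RefSeq gene table of assembly TAIR10.1. Sequences and coordinates are not used here.

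Signals were fitted as log2(signal + 8) in limma 3.58.1 (R 4.3.3) with 4 group means and no block. A probe set was tested when at least 3 arrays were above 16.4 (the 30th percentile of all arrays pooled), which left 17877. Log2 changes understate those of dim genes. Calls are at a Benjamini-Hochberg adjusted p below 0.05 over all tested probe sets, and the script was tested on simulated data. The number of arrays limits the precision. Arrays of a group had Spearman's rho of 0.954 to 0.986 and no 2 were alike.

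The members, the 10 gene lists and the genes named were chosen with earlier results of these data known. Named in full are the 15 members with 1 gene of lowest ratio and the 10 of highest wild-type flower mean, the members at the rule's edges, list members, and up to 4 other genes per list with the smallest p. Other genes, the symbol stems, the neighbours, the choice on other replicates and the counts without genes above the filter in 1 group alone were added after their values were seen. A gene with several probe sets is represented by the brightest.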

Additional observations from a re-analysis of the deposited data

Results flagged for a closer look

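Among the listed genes that are not members, 11 had a lug-3 change in flowers that differed from the lug-3 change in leaves, by limma's test of the interaction with adjustment over all 17877 probe sets, of which 23.0% passed. The values are flower change minus leaf change on the log2 scale. For ANX2 it was -2.02 (adjusted p = 0.000797), for MGH3 -1.41 (0.0255) and for BAN -4.50. These 3 had leaf means of at most 7.45 in signal, so their values restate the flower change. BAN and AGL104 are counted among the 11 but passed the filter through the wild-type flower arrays alone, so no test is drawn from them. The tapetum genes AT1G75920, SHT and SWEET8 gave -2.04 (adjusted p = 0.000684), -1.10 (0.0235) and -1.63 (0.00504), with leaf means between 7.67 and 18.4, around the filter level of 16.4. Leaf changes entered the other values. ACT11 gave -2.10 (adjusted p = 0.00014), with leaf means of 52.4 in lug-3 and 18.3 in wild type. AGL104 gave -1.55, with a flower change of -0.60 and leaf means of 11.5 in lug-3 and 1.88 in wild type, both below the filter level. UGT78D1 gave -0.81 (adjusted p = 0.0209), with a flower change of -0.02 and leaf means of 158 in lug-3 and 89.0 in wild type. AT5MAT gave -1.31 (adjusted p = 0.038), with leaf means of 13.6 in lug-3 and 27.2 in wild type, and SPT 0.71 (0.0143), with leaf means of 23.6 and 26.8. Groups of 3 arrays were not tested for single arrays that stand apart.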

How the results depend on the processing

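The rule found 123 members with a wild-type flower minimum of 200 and 48 with 450. Under the other alternatives it found 63 (arrays centred on a common median) to 87 (leaf maximum 30), and 70 to 83 with 1 array left out. The median log2 change of the members stayed between -1.80 and -1.55 with 1 array left out. The 2150 calls over all probe sets ranged from 1010 to 2619 with 1 array left out, being 1289 and 1217 when array 1 or 2 of lug-3 flowers was omitted and 1010 and 1071 when array 1 or 2 of wild-type flowers was omitted. The carpel list had 1 to 3 calls with 1 array left out, and 1 without each wild-type flower array, where BAN dropped below the filter because only 2 arrays then held its signal. The cutin list had 1 call with flower arrays only, and the photosynthesis list 1 with a pseudocount of 32 and 0 to 1 with 1 array left out. JMT, not called, was at -0.049 without lug-3 flowers 3 and at most 0.31 with another array left out. The causes of these shifts were not tested. The labels do not say whether equal replicate numbers mark pairs. Deviations of same-numbered flower arrays correlated at -0.03, -0.06 and 0.02, which cannot exclude that such pools were grown or handled together. With the replicate block limma made 2006 calls. Calls among other genes of the members' families were not run. The family patterns could be matched only to gene symbols and synonyms, without descriptions, and none matched 2 members that way. This does not mean that the members share no families.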
